A study of Homo sapiens with 27 samples.

Results

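The comparison set 4 libraries of cells carrying a deletion of an enhancer of LDAH (listed in the labels under its older name C2orf43) against 4 libraries of cells cut at HPRT, across all genes. These are 8 of the 27 libraries of the series, and both groups belong to its experiment set B. All were teloHAEC, aortic endothelial cells from a human donor immortalised as a cell line. Each replicate was 150000 cells that received Cas9 protein complexed with guide RNAs by electroporation, and RNA was taken 2 days later. In the LDAH deletion group the guides flanked the enhancer, and in the HPRT-targeted group the guide was the supplier's positive control against HPRT. Both groups therefore received Cas9 directed at a site in the genome, and they differ in the locus and in the guides used. They are called cut cells here, though no value used here measures the cutting. The 7 negative control libraries of set B received a non-targeting guide and serve here as the level without a targeted cut. The cells are pools that were not cloned, and the share of alleles deleted in each replicate is not given in the sources used here. Nothing in the labels says that the replicates came from separate cultures. A p-value here therefore weighs a group difference only against the spread among these libraries, which may be technical.

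LDAH is a hydrolase associated with lipid droplets, the organelles in which cells store neutral lipids and cholesteryl esters. HPRT1 encodes the purine salvage enzyme that returns hypoxanthine and guanine to the nucleotide pool, and its locus is a common control target for Cas9. A double-strand break made by Cas9 can activate p53, whose targets include MDM2, its own inhibitor, and CDKN1A, an inhibitor of the cell cycle. Endothelial cells show such responses beside their own programme, in which KLF2 is the transcription factor induced by blood flow and CDH5 encodes the cadherin of their junctions.

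Library totals were 3430481 to 5954962 counts in the 8 libraries. Levels are given as CPM, the counts of a gene scaled to a common library total that is adjusted by edgeR's TMM factors. By the plain totals, without these factors, 3 counts correspond to 0.504 to 0.875 CPM. LDAH deletion replicate 4 and HPRT-targeted replicates 2 and 4 stood apart from the rest. The median correlation of their log2 CPM with the other libraries of set B was 0.859 to 0.879, against 0.928 to 0.949 for the other 5 of the 8. Their share of counts from ribosomal protein genes was 14.7 to 17.1%, against 9.20 to 10.8%, and genes with long transcripts were lower in them. Of the negative controls, replicates 6 and 7 had the same features. Thus 1 of 4 LDAH deletion libraries and 2 of 4 HPRT-targeted libraries stood apart, and a second fit left them out (3 against 2, with 5 negative controls in the fit, called the kept libraries). Values are from all libraries unless they are said to be from the kept ones. The labels number the LDAH deletion libraries 50 to 54, the HPRT-targeted ones 55 to 64 and the negative controls of set B 56 to 67. Any handling that follows this number cannot be told apart from the LDAH deletion, against either control group. Endothelial markers were present (PECAM1 at 172.8 to 488 CPM and CDH5 at 112 to 419 CPM), and VWF was at 0 to 6.98 CPM. The 8 endothelial markers summed to 803 to 1247 CPM in the LDAH deletion group and to 672 to 1396 CPM in the HPRT-targeted group. Of 4 smooth muscle markers only ACTA2 was in the table, at 18.5 to 47.5 CPM, and the fibroblast and leukocyte markers there, PDGFRA and CD14, were at 0 to 4.04 CPM. In bulk samples fewer cells of a type and less RNA per cell cannot be told apart.

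LDAH (ENSG00000118961, chromosome 2, 20684014 to 20823130 on the minus strand, GRCh38) was listed at 10.9, 8.81, 6.81 and 2.80 CPM in the LDAH deletion libraries, from 61, 53, 40 and 9 counts. In the HPRT-targeted libraries it was at 7.76, 31.4, 14.3 and 24.3 CPM, from 30, 163, 86 and 113 counts. The groups overlapped, since HPRT-targeted replicate 1 lay below LDAH deletion replicates 1 and 2. The means were 7.32 ± 3.44 (SD, n = 4) and 19.4 ± 10.5 (SD, n = 4), and the negative controls ran from 7.96 to 18.8 CPM with a median of 11.6. The log2 fold change was -1.39 ± 0.44 (SE, 95% interval -2.32 to -0.46), with an adjusted p of 0.948 by edgeR's quasi-likelihood test. The exact two-sided permutation test gave p = 0.0857 (0.171 adjusted over the 2 targets), where the smallest p that 4 against 4 allows is 0.0286. Without the libraries that stand apart the value was -0.34 ± 0.42 (interval -1.20 to 0.52, adjusted p = 0.858 by edgeR): the highest HPRT-targeted values and the lowest LDAH deletion value were those of the libraries left out. Against the negative control, which both comparisons share, LDAH deletion gave -0.76 ± 0.40 and HPRT targeting 0.64 ± 0.38 with all libraries, and neither passed the test. The part of the libraries that stand apart in the LDAH value was not tested beyond leaving them out.

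**Figure D1:**
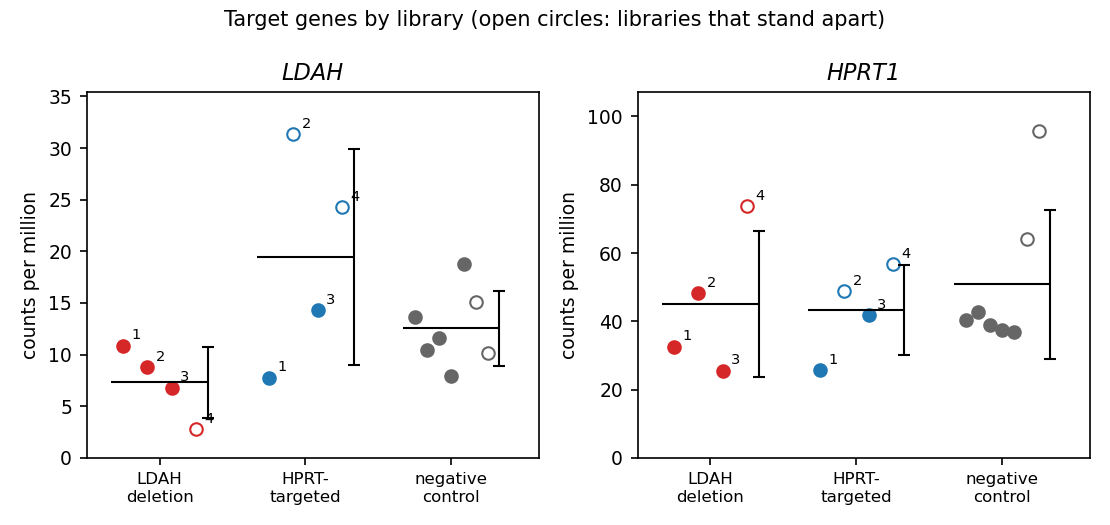
CPM of LDAH (left) and HPRT1 (right) in each library of set B, with the group mean and SD and the replicate numbers of the compared groups. Open circles are libraries that stand apart; the LDAH values at 31.4 and 24.3 CPM and the one at 2.80 CPM are among them, and the HPRT1 groups overlap throughout.

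The promoter of LDAH, as the window from 250 bases before to 50 bases after the RefSeq start (chr2:20823052-20823351, GRCh38.p14, minus strand), is shown because the enhancer was deleted for this gene. The enhancer and the guides are not printed, as no file used here holds their positions. Capitals mark matches to 6 motifs searched on both strands: CCGGAA (ETS core), GGGCGG (GC box), CCAAT (bound by NF-Y), TATAAA (bound by TBP), TGACGTCA (cyclic AMP response element, CRE) and GCATGCGC (NRF1 core).
LDAH: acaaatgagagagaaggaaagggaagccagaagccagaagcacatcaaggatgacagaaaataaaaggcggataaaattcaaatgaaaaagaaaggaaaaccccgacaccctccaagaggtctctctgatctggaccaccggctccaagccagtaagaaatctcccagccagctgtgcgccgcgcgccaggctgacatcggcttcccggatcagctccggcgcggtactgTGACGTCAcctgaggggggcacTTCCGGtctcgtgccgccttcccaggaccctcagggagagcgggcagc
This window holds a CRE, which 3.92% of the 9456 tested genes with a RefSeq window also have, and an ETS core on the other strand, which 36.4% have. A gene with several windows was counted once if any of them matched, and 28.9% of these genes had several.

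HPRT1 (ENSG00000165704, chromosome X, 134460153 to 134520513 on the plus strand) was at 32.6, 48.2, 25.5 and 73.6 CPM in the LDAH deletion libraries and at 25.6, 48.9, 41.7 and 56.7 CPM in the HPRT-targeted ones. The groups overlapped throughout, and the negative controls ran from 36.9 to 95.6 CPM. The log2 fold change was 0.05 ± 0.37 (SE, interval -0.73 to 0.83), and the exact permutation test gave p = 1. The kept libraries gave 0.06 ± 0.26. The interval leaves room for a level from 0.604 to 1.78 times that of the HPRT-targeted group. A small insertion or deletion at the cut need not change the number of transcripts, so this count does not check whether the locus was cut.

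With all libraries no gene passed the test: edgeR called 0 of 11769 genes (0%) at an adjusted p under 0.05, and the smallest adjusted p was 0.948. DESeq2 and limma voom with sample weights also called 0. At an unadjusted p under 0.05 there were 497 genes (4.22%), of which 338 (2.87%) were lower and 159 (1.35%) higher in the LDAH deletion group. All 4 LDAH deletion libraries were below all 4 HPRT-targeted ones for 145 genes (1.23%) and above them for 120 (1.02%). The median log2 fold change over all genes was 0.02, with quartiles of -0.26 and 0.30.

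The genes described next have the smallest unadjusted p among those with a mean of at least 10 CPM, and none of them passed the adjusted test. CCN1, a matricellular protein induced by YAP, serum and shear stress, was at 71.6, 67.3, 31 and 85.4 CPM after LDAH deletion and at 135, 139, 148 and 113 CPM after HPRT targeting. TNFRSF12A, the receptor of the cytokine TWEAK, was at 26.9, 31.8, 20.9 and 51.6 CPM against 73.0, 71.0, 63.7 and 113 CPM. For both genes the groups did not overlap, and the log2 fold changes were -1.07 ± 0.24 and -1.30 ± 0.30 (SE). In the kept libraries CCN1 had -1.32 ± 0.24 and TNFRSF12A -1.37 ± 0.26, and both passed there (adjusted p = 0.00787 and 0.00955 by edgeR). CXCL8, the chemokine that attracts neutrophils, was at 3.38, 11.6, 11.9 and 7.77 CPM against 13.7, 55.8, 33.8 and 60.8 CPM (-2.24 ± 0.55), and the 2 highest of these values came from HPRT-targeted libraries that stand apart. The kept libraries gave -1.42 ± 0.46 for CXCL8, which did not pass (adjusted p = 0.207 by edgeR). DKK1, a secreted inhibitor of Wnt signalling, had -1.62 ± 0.39, and HPRT-targeted replicate 4 was far above the other libraries at 48.3 CPM (-0.94 ± 0.38 in the kept libraries). EFNB1, the ephrin ligand ephrin-B1, was even within each group: 45.0 to 47.6 CPM after LDAH deletion and 67.7 to 83.5 CPM after HPRT targeting, with -0.71 ± 0.19. The other genes of this rank were M6PR (cation-dependent mannose 6-phosphate receptor, -0.85 ± 0.22), WASHC3 (subunit of the WASH complex, -0.88 ± 0.23), MTX2 (mitochondrial outer membrane protein, -1.41 ± 0.38), ARHGEF2 (activator of RhoA, -1.06 ± 0.29) and ZCCHC7 (RNA-binding protein of the nuclear exosome's cofactor, -0.79 ± 0.21). All 4 LDAH deletion libraries lay below all 4 HPRT-targeted ones for each of these 10 genes, beside 1.23% of all genes tested. The 10 were ranked by p on these same libraries, so this restates the ranking.

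In the other direction FAAP20, a subunit of the Fanconi anaemia core complex, was at 26.5, 22.8, 22.6 and 26.4 CPM after LDAH deletion and at 12.2, 14.8, 16.5 and 10.1 CPM after HPRT targeting (0.87 ± 0.23). TDP1, the enzyme that removes topoisomerase adducts from DNA ends, was at 34.7 to 41.0 CPM against 24.5 to 25.8 CPM (0.56 ± 0.17), while the negative controls ran from 26.6 to 37.9 CPM. All 4 HPRT-targeted libraries thus lay below the negative controls for TDP1, and LDAH deletion replicate 4 lay above them. EDC3, an mRNA decapping factor (1.10 ± 0.30), and MAP3K1, a kinase upstream of JNK (1.06 ± 0.32), also had groups that did not overlap. For MZT2A (0.77 ± 0.25), POMT1 (0.95 ± 0.32), RALGAPA1 (0.76 ± 0.26), MRRF (0.66 ± 0.23), TTLL4 (1.13 ± 0.39) and EML3 (1.01 ± 0.36) at least 1 library crossed into the other group. Several of these genes (M6PR, ARHGEF2, FAAP20, EDC3, POMT1, MRRF and EML3) overlap a gene on the opposite strand, and whether counting used the strand is not given in the sources used here.

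Without the libraries that stand apart, 77 of 12153 genes passed the edgeR test (0.634%): 76 fell (0.625%) and 1 rose (0.00823%) in the LDAH deletion group. The 1 that rose was TTC31, a gene of the tetratricopeptide repeat family named here because it stood alone, with 10.2, 16.3 and 16.7 CPM against 3.36 and 1.5 CPM (2.6 ± 0.58 in the kept libraries, beside 0.61 ± 0.72 with all libraries). Its negative controls spanned 1.11 to 13.8 CPM, and it overlaps CCDC142 on the opposite strand. All 76 genes that fell also had a negative log2 fold change with all libraries, 30 of them at an unadjusted p under 0.05. Their median was -1.28 without the libraries that stand apart and -0.77 with all, beside 0.01 and 0.02 over all genes tested. These genes were called on the same libraries, so their values here describe them and test nothing.

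The catalytic subunit of protein phosphatase 4, PPP4C, had the largest change among the genes with a mean of at least 10 CPM. It was at 4.81, 4.82 and 0.510 CPM (3 counts in the last) in LDAH deletion replicates 1 to 3 and at 52.8 CPM in replicate 4, against 38.6, 47.9, 42.1 and 73.3 CPM after HPRT targeting. The kept libraries gave -3.57 ± 0.51 (SE, adjusted p = 8.84e-04 by edgeR), and all libraries -1.73 ± 0.81. RGCC, a regulator of the cell cycle induced by complement, was at 9.62, 2.83, 0.851 and 19.0 CPM against 25.1, 38.3, 29.9 and 11.6 CPM. Its value was -2.64 ± 0.49 in the kept libraries and -1.75 ± 0.61 in all. CD9, a tetraspanin of the cell surface, was at 91.4, 74.5, 33.3 and 414 CPM against 280, 294, 327 and 352 CPM, with -2.20 ± 0.28 in the kept libraries and -1.03 ± 0.55 in all. KLF2 was at 15.3, 17.5, 11.9 and 46.3 CPM against 53.1, 45.0, 70.7 and 38.5 CPM, with -2.06 ± 0.28 in the kept libraries and -1.21 ± 0.37 in all. In all 4 genes replicates 1 to 3 of the LDAH deletion lay below every HPRT-targeted library, and replicate 4 did not share the low level. NCSTN, the nicastrin subunit of gamma-secretase, was at 13.9, 10.5, 2.72 and 30.4 CPM against 32.6, 14.1, 39.1 and 24.3 CPM, with -2.0 ± 0.39 in the kept libraries and -0.96 ± 0.53 in all. TMSB4X, the actin-binding thymosin beta-4, was at 1219, 881, 199 and 4952 CPM against 2977, 2609, 2761 and 4212 CPM, with -1.91 ± 0.36 in the kept libraries and -0.79 ± 0.59 in all. Its sequence has near-identical copies in the genome, as have the ribosomal protein genes below, and their counts are uncertain. LLGL1 (cell polarity, -2.12 ± 0.39), GNB2 (G protein beta subunit, -1.96 ± 0.36), PLAU (urokinase, -1.83 ± 0.40) and SEC61G (endoplasmic reticulum translocon, -1.77 ± 0.36) completed the 10 largest in the kept libraries. With all libraries these 4 had -0.89 ± 0.55, -0.96 ± 0.48, -1.05 ± 0.48 and -1.21 ± 0.44, and none of the 10 passed there. LLGL1, NCSTN and PLAU overlap a gene on the opposite strand (FLII, COPA and C10orf55), whose reads may not have been separated. LDAH deletion replicate 3 was the lowest library for each of these 10 genes, for example at 6.30 CPM for PLAU beside 35.4 and 40.2 CPM in replicates 1 and 2.

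**Figure D2:**
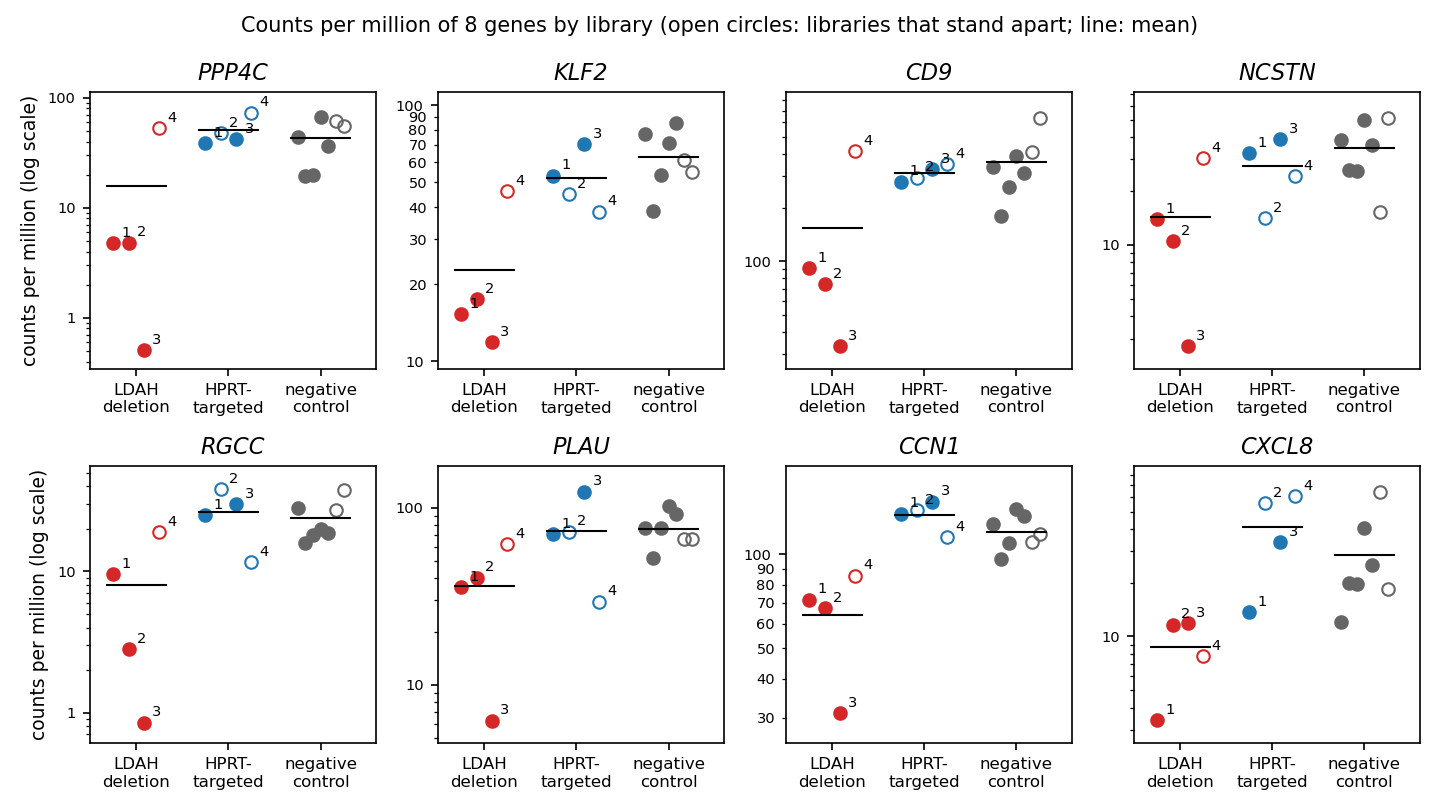
CPM on a log scale for PPP4C, KLF2, CD9, NCSTN, RGCC, PLAU, CCN1 and CXCL8 in each library of set B; points are libraries, open ones stand apart, numbers are replicates and lines are group means. LDAH deletion replicates 1 to 3 lie low for PPP4C, KLF2 and CD9, with replicate 3 lowest, and replicate 4 lies among the controls; for CCN1 and CXCL8 all 4 lie below all 4 HPRT-targeted libraries.

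The low level of the 76 genes was thus carried by replicates 1 to 3, and replicate 4, which took no part in calling them, was not low. Relative to the mean of the kept HPRT-targeted libraries, the median log2 difference was -0.90, -1.07 and -1.68 in replicates 1, 2 and 3, and 0.08 in replicate 4. Replicate 4 lay above the other 3 for 66 of the 76 genes. Replicate 3 was the lowest of the 3 for 66 of the 76, beside 35.9% of all genes tested. The 2 HPRT-targeted libraries that stand apart had median differences of -0.13 and -0.10, and negative control replicates 6 and 7 had 0.25 and 0.43. The 76 genes were called for low values in LDAH deletion replicates 1 to 3 relative to HPRT-targeted replicates 1 and 3. The counts that follow therefore come in part from the calling. For 56 of the 76 genes the 3 LDAH deletion libraries were below all 12 other libraries of set B, which held for 285 of all 12153 genes (2.35%). All 76 were below the 5 kept negative controls in each of the 3 libraries, beside 19.2, 20.9 and 24.7% of all genes. HPRT-targeted replicates 1 and 3 were below them for 5 and 1 of the 76, beside 17.4 and 14.8% of all genes. In the libraries that stand apart the number was 19 of the 76 for LDAH deletion replicate 4 (34.2% of all genes) and 26 and 24 for HPRT-targeted replicates 2 and 4 (35.2 and 36.0% of all genes). The number of calls rested on single libraries: it was 40 without LDAH deletion replicate 3, 130 without LDAH deletion replicate 1, and 6 without HPRT-targeted replicate 3.

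Chromosome 1 held 18 of the 76 genes (23.7%), beside 1212 of the 12153 genes tested. The transcripts of the 76 genes had a median length of 2558 bases, beside 3610 bases over all genes tested. GC content in the last 500 bases was 41.8%, beside 41.6%. The 76 genes also had a higher median level, 65.6 CPM beside 24.7 CPM, and whether the shorter length goes with that level was not tested. The gene AC020978.7, a transcript that overlaps NFATC3 on the same strand, had 0 counts in LDAH deletion replicates 1 to 3, 5.90 CPM in replicate 4, and 12.4, 4.62, 26.1 and 0 CPM after HPRT targeting. Taking 3 counts over the 3 libraries as the floor (0.173 CPM), it was at least 121-fold lower than in the 2 kept HPRT-targeted libraries together, at 20.9 CPM. Reads of AC020978.7 and NFATC3 cannot be told apart where they overlap. As for LDAH, the part that library differences took in these 76 values was not tested beyond the fits without single libraries.

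The promoter windows of PPP4C (chr16:30075744-30076043, plus strand), KLF2 (chr19:16324576-16324875, plus strand) and NCSTN (chr1:160343133-160343432, plus strand) are shown as those of leading genes that fell together in these 3 libraries and have a single RefSeq window (GRCh38.p14). Capitals mark the same 6 motifs.
PPP4C: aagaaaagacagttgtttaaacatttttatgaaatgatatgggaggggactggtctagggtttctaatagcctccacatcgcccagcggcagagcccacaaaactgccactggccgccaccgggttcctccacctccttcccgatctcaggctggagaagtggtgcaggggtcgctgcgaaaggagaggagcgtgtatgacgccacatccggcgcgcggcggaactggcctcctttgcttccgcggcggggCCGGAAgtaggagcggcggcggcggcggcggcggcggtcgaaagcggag
KLF2: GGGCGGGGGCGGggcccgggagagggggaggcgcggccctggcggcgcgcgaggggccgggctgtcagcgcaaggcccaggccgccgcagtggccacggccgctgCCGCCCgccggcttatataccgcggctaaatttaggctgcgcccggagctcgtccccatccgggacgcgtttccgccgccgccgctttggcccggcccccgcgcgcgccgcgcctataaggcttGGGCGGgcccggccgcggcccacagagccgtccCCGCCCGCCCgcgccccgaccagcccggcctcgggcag
NCSTN: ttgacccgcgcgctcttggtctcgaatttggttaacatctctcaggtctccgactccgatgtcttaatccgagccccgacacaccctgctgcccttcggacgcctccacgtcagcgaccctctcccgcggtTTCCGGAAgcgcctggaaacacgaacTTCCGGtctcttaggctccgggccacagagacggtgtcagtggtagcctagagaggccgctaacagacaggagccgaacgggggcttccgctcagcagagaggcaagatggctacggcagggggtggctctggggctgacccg
PPP4C has 1 ETS core near its start, KLF2 has 6 GC box matches, of which a pair overlaps, and NCSTN has 3 ETS core matches, of which a pair overlaps. RefSeq windows were matched for 59 of the 76 genes and for 9670 of the 12153 tested. Among them an ETS core was found in 42.4% of the 59 beside 36.2% of all, a GC box in 81.4% beside 77.5%, and a CCAAT box in 40.7% beside 43.7%. A TATA box was found in 5.08% beside 8.09%, a CRE in 3.39% beside 3.90%, and an NRF1 core in 3.39% beside 6.73%. Median GC content of the windows was 65.3% and 64.8%. The 76 genes thus held each motif at a share within 7 percentage points of all genes, and a match describes letters in a window only.

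**Figure D3:**
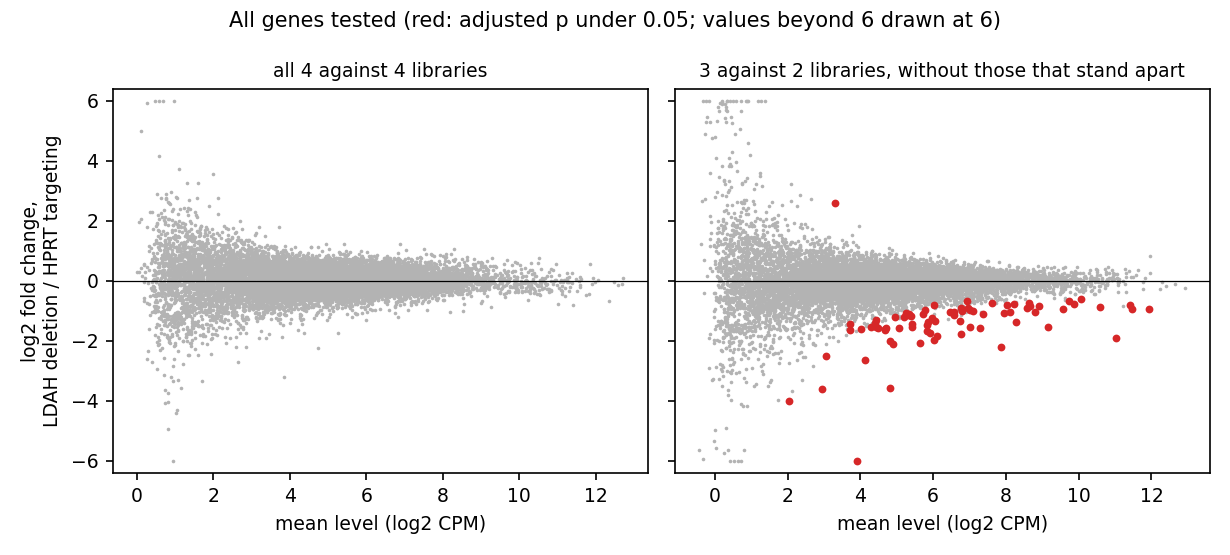
Log2 fold change of each gene tested (vertical) against its mean level in log2 CPM (horizontal), with all libraries (left) and without those that stand apart (right). Red points passed the edgeR test: 0 of 11769 on the left, and on the right 76 lower and 1 higher of 12153.

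No target of p53 passed the test between the 2 groups of cut cells. With all libraries 18 of the 36 tested members were higher and 18 lower, with a median of -0.01 beside 0.02 over all genes. Without the libraries that stand apart 14 were higher and 22 lower (median -0.04), again with 0 calls. MDM2 and CDKN1A, named here as the best known targets of the list, were at 299, 216, 249 and 250 CPM and at 545, 348, 440 and 697 CPM after LDAH deletion. After HPRT targeting MDM2 was at 230, 227, 233 and 301 CPM and CDKN1A at 491, 439, 417 and 546 CPM, so that the groups overlapped. The log2 fold changes were 0.04 ± 0.19 (interval -0.36 to 0.43) for MDM2 and 0.10 ± 0.26 (interval -0.44 to 0.64) for CDKN1A. Negative controls ran from 126 to 212 CPM for MDM2, below all 8 libraries of cut cells, and from 249 to 518 CPM for CDKN1A. Against these shared negative controls the median of the 36 members was 0.19 for LDAH deletion and 0.23 for HPRT targeting. GDF15, a secreted stress cytokine, was the one member whose groups were apart at an unadjusted p under 0.05, with 118 to 168 CPM after LDAH deletion and 171 to 213 CPM after HPRT targeting (-0.37 ± 0.18). SERTAD1 (-0.66 ± 0.32) and ASCC3 (0.38 ± 0.23) had overlapping groups.

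Genes of double-strand break sensing and repair had 25 of 40 members higher and 15 lower, with a median of 0.19, and 28 higher and 12 lower (0.19) without the libraries that stand apart. None of the 40 passed the test in either fit. CHEK2, a checkpoint kinase, was at 2.89 to 6.52 CPM against 4.43 to 14.6 CPM (-0.90 ± 0.41), and TOPBP1, an activator of ATR, at 43.5 to 78.8 CPM against 19.6 to 48.4 CPM (0.78 ± 0.36). RAD54L, a recombination motor, had 0 to 1.16 CPM against 0 to 4.40 CPM, which is near the 3-count floor. Among 38 proliferation genes 19 were higher and 19 lower with all libraries (median 0.00), and 32 were higher and 6 lower (median 0.33) without those that stand apart, with 0 calls in both. PCNA, the sliding clamp of DNA replication, went the other way from the kept median: it was at 75.5 to 83.2 CPM in the LDAH deletion libraries and at 98.3 to 157 CPM in the HPRT-targeted ones (-0.68 ± 0.20). NUSAP1, a spindle protein, had 0.39 ± 0.18, and TYMS, thymidylate synthase, -0.42 ± 0.22. In the fit without the libraries that stand apart the genes nearest to a call in the upward direction included the mitotic genes KIF20B (0.67 ± 0.16), PLK1 (0.85 ± 0.21), KIF15 (0.94 ± 0.24) and TPX2 (0.63 ± 0.18), with adjusted p of 0.0605, 0.0710, 0.0797 and 0.123 by edgeR. RBL1, a pocket protein related to RB1, had 1.02 ± 0.25 (adjusted p = 0.0676 by edgeR). None of these genes passed, and other genes near a call in this direction are not named here.

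The lipid droplet list, to which LDAH itself belongs, had 13 of 27 tested members higher and 14 lower, with a median of -0.00, and no member passed the test with or without the libraries that stand apart (kept median 0.02). The coat proteins PLIN2 and PLIN3 had 0.36 ± 0.24 and 0.28 ± 0.15. PLIN2 was at 35.1 to 41.9 CPM after LDAH deletion and 24.1 to 33.6 CPM after HPRT targeting, so that these groups did not overlap, and the negative controls covered 24.1 to 46.8 CPM. Acyl-CoA synthetase ACSL1 was at 13 to 15.8 CPM against 15.8 to 24.3 CPM (-0.43 ± 0.23), and the lysosomal lipase LIPA at 11.9 to 28.6 CPM against 19.8 to 27.4 CPM (-0.48 ± 0.35). PISD, a phosphatidylserine decarboxylase, had -0.57 ± 0.31. Adipose triglyceride lipase PNPLA2 (0.39 ± 0.56), its activator ABHD5 (-0.00 ± 0.18), hormone-sensitive lipase LIPE (0.04 ± 0.29) and the cholesteryl ester hydrolase NCEH1 (0.10 ± 0.22) had intervals that span 0. SOAT1, which makes cholesteryl esters, had -0.31 ± 0.26, and DGAT1, which makes triglycerides, 0.38 ± 0.35.

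Of 28 tested genes of cholesterol synthesis and uptake 11 were higher and 17 lower (median -0.09, kept median -0.15), with 0 calls. IDI1, an isomerase of the isoprenoid pathway, was at 56.6, 59.2, 32 and 43.8 CPM after LDAH deletion and at 68.6, 107, 74.5 and 73.9 CPM after HPRT targeting, with no overlap (-0.76 ± 0.24). Purine genes, the pathway of HPRT1, had 11 of 22 members higher and 11 lower (median -0.01, kept median 0.03), with 0 calls. PFAS, an enzyme of purine synthesis, was at 29.2 to 51.7 CPM against 23.6 to 28.3 CPM (0.56 ± 0.22), which was the largest difference among the 22. Adenosine kinase ADK had -0.36 ± 0.21, and the salvage enzyme APRT -0.02 ± 0.20.

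Endothelial identity genes had 17 of 33 members higher and 16 lower (median 0.04), and 12 higher and 21 lower (median -0.22) without the libraries that stand apart. In that fit 1 of the 33 passed, CDH5, with 216, 179 and 129 CPM against 287 and 419 CPM (-1.02 ± 0.18, adjusted p = 0.00787 by edgeR), beside 0.634% of all genes and -0.59 ± 0.38 with all libraries. The 3 libraries left out held CDH5 at 112, 134 and 119 CPM in both groups alike. SOX17, an arterial transcription factor, was at 40.7 to 65.7 CPM against 69.8 to 76.9 CPM (-0.53 ± 0.23) and did not pass. Gamma-secretase and Notch genes had 10 of 18 higher and 8 lower (median 0.00, kept median -0.22). Without the libraries that stand apart 2 of the 18 passed, beside 0.634% of all genes: NCSTN and HES1, the Notch target gene, which was at 25.1, 34.6 and 16.7 CPM against 67.8 and 92.6 CPM (-1.66 ± 0.29, adjusted p = 0.00682 by edgeR). The lists were chosen with earlier results of these data known, so the share called in a list describes it and tests nothing. With all libraries HES1 had -0.66 ± 0.43; LDAH deletion replicate 4 was at 77.4 CPM and HPRT-targeted replicates 2 and 4 were at 35.2 and 45.8 CPM. PSENEN, another gamma-secretase subunit, had -0.57 ± 0.21 with all libraries, with 22.1 to 33.3 CPM below 37.4 to 42.3 CPM. It overlaps U2AF1L4 on the opposite strand, whose reads may not have been separated. Of the 15 subunits of protein phosphatases 4 and 2A, 8 were higher and 7 lower (median 0.02, kept median 0.03). PPP4C was the only call among them, in the kept fit, beside 0.634% of all genes.

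Integrated stress and unfolded protein response genes had 16 of 34 higher and 18 lower (median -0.11), and 8 higher and 26 lower (median -0.35) in the kept fit. MANF, a chaperone-like protein of the endoplasmic reticulum, was the 1 call among these 34, beside 0.634% of all genes in that fit. It was at 83.7, 91.0 and 50.4 CPM against 122 and 170 CPM (-0.97 ± 0.21, adjusted p = 0.0276 by edgeR), beside -0.80 ± 0.27 with all libraries. SLC3A2 (-0.49 ± 0.18) and SLC7A11 (-0.39 ± 0.16), the chains of the cystine transporter, had negative values with all libraries. Heat shock genes had 11 of 23 higher and 12 lower (median -0.01, kept median 0.16), with 1 kept call, beside 0.634% of all genes. That call was the co-chaperone BAG3 (-0.81 ± 0.18), whose value with all libraries was -0.19 ± 0.56. HSPE1, a mitochondrial chaperonin, had -0.42 ± 0.21. Cytosolic ribosomal protein genes had 13 of 78 higher and 65 lower (median -0.19, kept median -0.07). Their summed share moved with the libraries that stand apart, from 14.7 to 17.1% in those and from 9.20 to 10.8% in the other 5. The kept fit called 4 of the 78, beside 0.634% of all genes: RPL30 (-0.85 ± 0.15), RPL34 (-0.76 ± 0.15), RPS29 (-0.79 ± 0.17) and RPL19 (-0.67 ± 0.15). With all libraries these had -0.77 ± 0.38, -0.64 ± 0.36, -0.45 ± 0.44 and -0.38 ± 0.27, and none passed. RPL23 had -0.49 ± 0.20 with all libraries.

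No member passed in either fit in the 7 lists that follow. Interferon-stimulated genes had 23 of 33 higher and 10 lower (median 0.20, kept median 0.06), with IFITM2 at 0.42 ± 0.21, GBP1 at 0.48 ± 0.23 and ISG20 at -1.14 ± 0.44. NF-kB and inflammation genes had 9 of 20 higher and 11 lower (median -0.15, kept median -0.06), with CXCL8 and CXCL3 in opposite directions. CXCL3 was at 2.04 to 14.3 CPM after LDAH deletion and 0 to 3.99 CPM after HPRT targeting, close to the floor. TGF-beta and BMP genes had 17 of 28 higher and 11 lower (median 0.14, kept median -0.02), with the receptor ACVRL1 at 0.35 ± 0.17 and ID3, a BMP target, at -0.50 ± 0.30. Hypoxia and glycolysis genes had 19 of 31 higher and 12 lower (median 0.05, kept median 0.10), with P4HA1 at -0.48 ± 0.23 and PFKP at 0.36 ± 0.20. Mitochondrially encoded genes had 12 of 13 higher and 1 lower (median 0.30, kept median 0.24), with MT-ND5 at 0.70 ± 0.36 and MT-ND2 at 0.37 ± 0.20. Mesenchymal markers had 12 of 16 higher and 4 lower (median 0.20, kept median 0.01), where SNAI1 had -1.06 ± 0.49 and MYL9 was at 3.33 to 11.2 CPM against 0 to 3.33 CPM. The 6 epithelial and blood cell genes tested all had positive values (median 0.47, kept median 0.06), also with 0 calls.

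**Figure D4:**
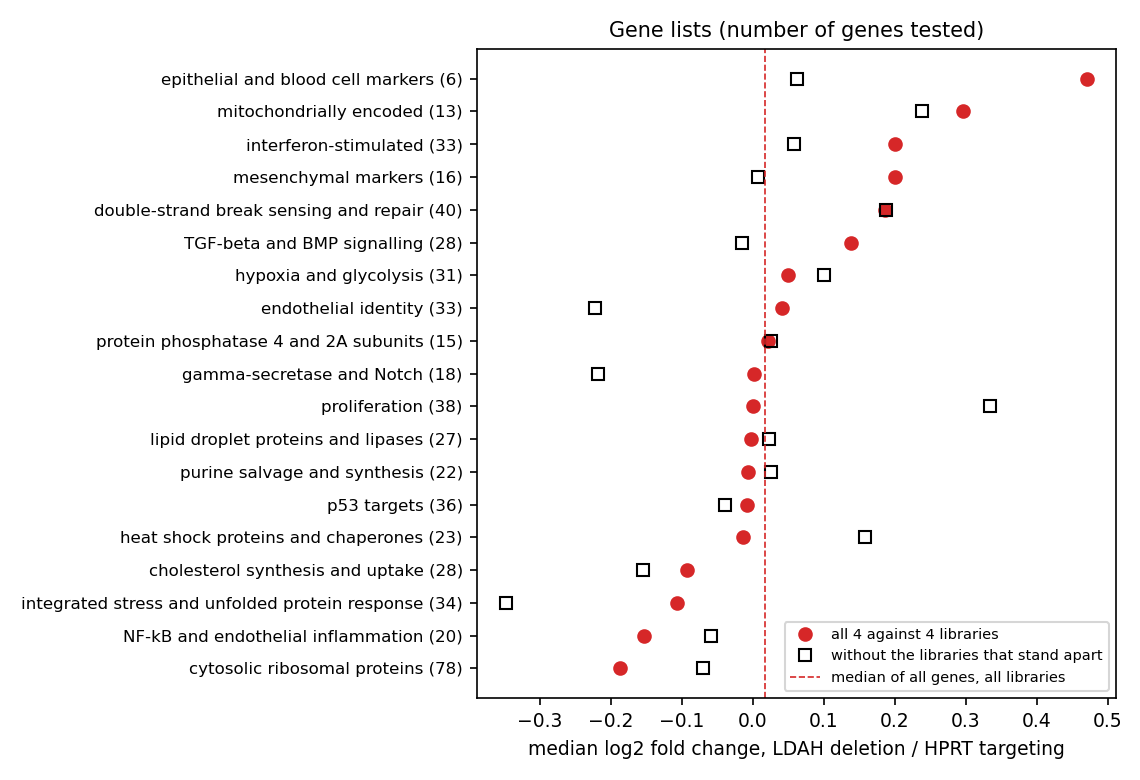
Median log2 fold change of each gene list, LDAH deletion over HPRT targeting, with all libraries (red circles) and without those that stand apart (open squares); numbers in brackets are genes tested, and the dashed line is the median of all genes, 0.02. The medians of the proliferation list (0.00 and 0.33) and of the stress response list (-0.11 and -0.35) move apart between the fits, and those of the p53 (-0.01 and -0.04) and lipid droplet lists (-0.00 and 0.02) stay near 0.

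No gene around the cut loci passed the test. Within 1 Mb of LDAH 9 other genes were tested, and none reached an unadjusted p under 0.05 (all genes 4.22%). The nearest was HS1BP3, at a distance of 32925 bases, with 10.5 to 13.8 CPM against 7.70 to 27.9 CPM (-0.36 ± 0.38). On the other side APOB, the apolipoprotein of LDL, was at 0 to 4.42 CPM in both groups together. The small GTPase gene RHOB had 0.17 ± 0.32, and LAPTM4A, a lysosomal membrane protein, -0.08 ± 0.31. MATN3, with -1.49 ± 0.97, was at 0 to 7.09 CPM. Beside HPRT1, PHF6 had -0.12 ± 0.23 and PABIR2, which overlaps FAM122C on the opposite strand, 0.41 ± 0.36. The 50 tested genes between LDAH and the end of the short arm had a median of 0.01 (27 higher, 23 lower), and the 71 between HPRT1 and the end of the long arm of chromosome X had 0.09 (42 higher, 29 lower). Medians of whole chromosomes ran from -0.07 for chromosome 6 to 0.10 for chromosome 19.

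**Figure D5:**
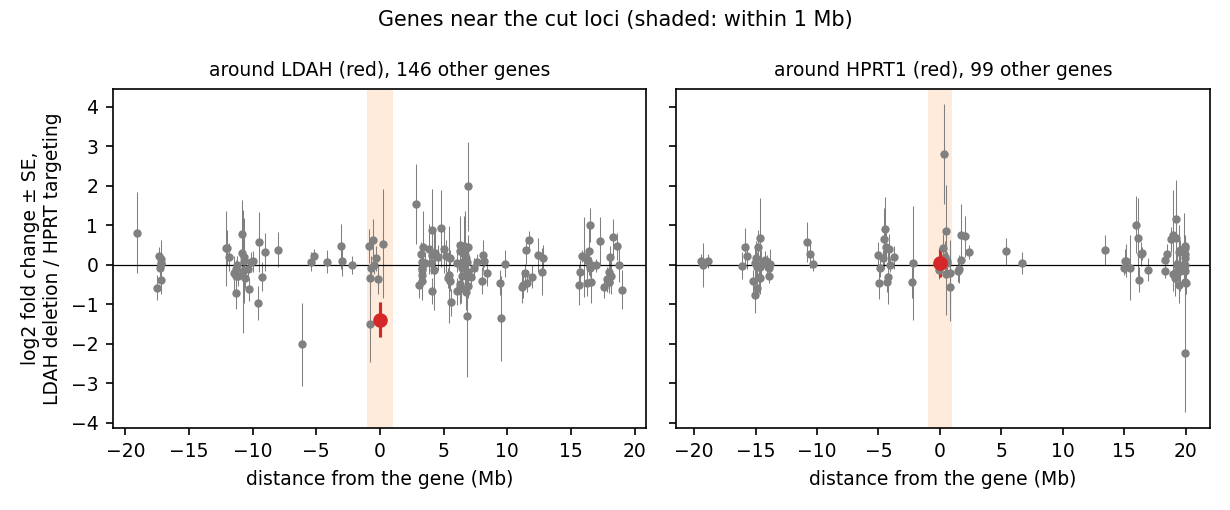
Log2 fold change with SE of each tested gene within 20 Mb of LDAH (left) and HPRT1 (right), by distance from the gene in Mb; the target gene is red and the shading spans 1 Mb to each side. LDAH stands at -1.39 and HPRT1 at 0.05, and the neighbours scatter around 0.

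Set A of the series holds a second deletion with the same kind of control: 4 libraries with an enhancer of SMAD3 deleted and 4 HPRT-targeted ones, with no library shared with set B. Across the 11330 genes tested in both sets the log2 fold changes of the deletions against their HPRT-targeted groups had r = 0.05 and rho = 0.07, and 53.1% had the same sign; genes are not independent replicates. A test of the difference between the deletions called 0 of 12055 genes (0%) by edgeR with all libraries, with 542 at an unadjusted p under 0.05, and 1 by limma voom. In set A, replicate 4 of the SMAD3 deletion and replicate 3 of its HPRT-targeted group had been found to stand apart in an earlier analysis, so that 3 against 3 libraries of set A and 3 against 2 of set B remained without such libraries. That fit called 39 of 12366 (0.315%), 34 of them lower in the LDAH contrast and 5 higher. Of the 39, 25 (64.1%) were also called between LDAH deletion and HPRT targeting in the kept libraries, which this difference reuses. PPP4C, KLF2, CD9 and NCSTN are among these 25, so their differences below describe them and are no separate test. PPP4C had 0.44 ± 0.25 after SMAD3 deletion and a difference of -4.09 ± 0.59 (adjusted p = 4.42e-04 by edgeR), and KLF2 had 0.29 ± 0.15 and a difference of -2.39 ± 0.34 (adjusted p = 4.42e-04 by edgeR). The SMAD3 values here are from all libraries of set A and the differences from the kept ones. For CD9 the values were -0.27 ± 0.17 and -1.71 ± 0.34 (adjusted p = 0.0273), and for NCSTN -0.07 ± 0.16 and -1.91 ± 0.43 (adjusted p = 0.0420). LDAH had -0.40 ± 0.19 after SMAD3 deletion and a difference of -0.97 ± 0.49 with all libraries, which did not pass (adjusted p = 0.990 by edgeR), and 0.25 ± 0.43 without the libraries that stand apart. For DPH1 the difference was -7.23 ± 0.75 in the kept libraries (adjusted p = 1.22e-06 by edgeR) and -2.68 ± 1.12 in all, where it did not pass. Its kept LDAH contrast was -0.05 ± 0.21 and its SMAD3 contrast with all libraries 2.18 ± 0.98. The gene overlaps OVCA2 on the same strand, so its counts are uncertain.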

How the data were processed

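The deposited table holds integer read counts per gene for 14008 genes and 27 QuantSeq 3' libraries sequenced for 86 cycles, per the labels' protocols. Per the submitters' processing notes, the tool was edgeR 3.24.3 and the build hg38. No aligner, counting program or strand setting is given in the sources used here. Other named genes that overlap a counted gene on the opposite strand include PFAS, LIPA, CHEK2, RAD54L, TYMS, PISD, SLC7A11, HSPE1 and RPS29. IFITM2 and KIF15 overlap one on the same strand. The counts of these genes carry the same uncertainty. A current symbol was found for 13053 IDs and a GENCODE 29 one for 861 more, and 13899 had a GRCh38 position. Counts tie each value to 1 end of a transcript, and libraries with other transcript lengths shift whole groups of genes.

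The 15 libraries of set B were fitted together with edgeR 4.0.16 in R 4.3.3 (TMM, filterByExpr by group, 11769 genes, quasi-likelihood F test, two-sided, Benjamini-Hochberg over all genes at 0.05). SE is the log2 fold change divided by the square root of F. The common dispersion was 0.195, and 0.0617 without the 5 libraries of set B that stand apart (12153 genes). Between libraries of 1 group the chi-square of the counts was 8.86 to 81.4 times its degrees of freedom, far above sampling noise. The difference between the deletions was fitted on all 27 libraries. The targets were also tested by exact permutation of log2 CPM (prior count 2). limma 3.58.1 and DESeq2 1.42.0 were alternatives. Tables and motifs were made with Python 3.11.15 and pandas 2.3.3.

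Counts were also simulated with the common dispersion of each fit given to every gene. With all libraries (11510 genes) edgeR recovered 6 of 100 genes changed 1 log2 unit and 69 of 100 changed by 2 units. Without those that stand apart (11695 genes) it recovered 29 and 97 of 100. Only genes of at least 10 CPM were changed, and no simulated library stood apart from the rest. These rates therefore need not hold for the real libraries or for lower genes. Floors of 3 counts cover counting error only, since reads carry no molecular identifiers.

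Named genes are LDAH, HPRT1, their neighbours (within 1 Mb of LDAH, nearest of HPRT1), up to 10 genes per direction with a mean of at least 10 CPM by size among calls or by unadjusted p without calls, the 4 smallest p of each list, and the lipid droplet and purine lists. MDM2, CDKN1A, TTC31, HES1, BAG3, RPS29 and RPL19 were named after their values were seen. The members, the lists and the libraries that stand apart were chosen with earlier results of these data known. Promoter windows are from RefSeq (GRCh38.p14).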

Additional observations from a re-analysis of the deposited data

Results flagged for a closer look

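In 13 of 188 groups of 4 libraries examined (2 groups for each of 94 genes), 1 library lay far from the other 3. Chance gives about 1 in 20 for groups not chosen by their values, a rate that cannot be applied here: PPP4C, CD9, KLF2, AC020978.7, RPS29 and RPL19 were named because they were called lower without LDAH deletion replicate 4 and the other libraries that stand apart, and KIF20B and RBL1 were also ranked in that fit. The library was LDAH deletion replicate 4 in 7 of the 13, HPRT-targeted replicate 4 in 4 and HPRT-targeted replicate 2 in 2. LDAH deletion replicate 4 was high for LAPTM4A (608 CPM), PPP4C (52.8 CPM), CD9 (414 CPM), KLF2 (46.3 CPM), AC020978.7 (5.90 CPM) and RPL19 (1342 CPM), and low for KIF20B (28 CPM). HPRT-targeted replicate 4 was high for DKK1 (48.3 CPM), MDM2 (301 CPM) and RPS29 (6976 CPM) and low for PLIN2 (24.1 CPM). HPRT-targeted replicate 2 was high for RBL1 (43.3 CPM) and IDI1 (107 CPM).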

How the results depend on the processing

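No paired analysis was possible because the labels give no shared replicate numbers. The count of 0 calls held under DESeq2, limma voom, both other scalings, no filter, a mean of at least 10 CPM, the 8 libraries alone, all 27, thinning and a pooled control, and with each of the 8 libraries left out. Without the libraries that stand apart it was 77. The other fits on those libraries were chosen after seeing the data: DESeq2 called 134 genes (68 of the 77), limma voom 65 (62), a mean of at least 10 CPM 91 (73) and DESeq2 size factors 69 (69). Leaving out 1 more library gave 130 (71 of the 77), 64 (51) and 40 (38) without LDAH deletion replicates 1, 2 and 3, and 45 (38) and 6 (5) without HPRT-targeted replicates 1 and 3. The number of genes at an unadjusted p under 0.05 was 497 with all libraries of set B, 309 without LDAH deletion replicate 3, 1103 without LDAH deletion replicate 4, 269 with the 8 libraries alone, 964 by limma voom and 1177 with all 27. The difference between the deletions had 39 calls without the libraries that stand apart and 1 by limma voom. The LDAH value was -1.65 to -1.06 with 1 library left out, -0.57 by limma voom and -0.34 without the libraries that stand apart. HPRT1 was -0.10 against the pooled control and -0.29 to 0.25 with 1 library left out. Of 1775 values of 94 genes 20 changed sign, in 9 genes. Apart from HPRT1 these were RHOB (-0.18 by limma voom, -0.23 without the libraries that stand apart), CDKN1A (-0.035 without them) and PHF6 (0.067 against the pooled control), and, with 1 library left out, HS1BP3 (-0.58 to 0.085), LAPTM4A (-0.42 to 0.022), RHOB (-0.13 to 0.30), APOB (-0.087 to 1.25), PHF6 (-0.23 to 0.036), MDM2 (-0.054 to 0.14), CDKN1A (-0.090 to 0.25) and BAG3 (-0.51 to 0.22). The cause was not tested. The depth (3430481 to 5954962 counts) leaves genes near the 3-count floor, such as RAD54L, CXCL3, MYL9 and APOB, without a usable fold.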
